A study of Mus musculus with 6 samples.

Results

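The comparison described here is a difference of differences: how far the change made by a histone deacetylase inhibitor in mice that received foot shocks departed from the change it made in mice that saw the same chamber without shock. It was computed over all 6 libraries of the series as the log2 difference HDACi-CFC minus Veh-CFC, less the log2 difference HDACi-Context minus Veh-Context. A positive interaction means that the drug difference was more positive with shock than without, and a negative one that it was more negative. Nuclei entered when they had 500 genes or more and no more than 5% mitochondrial UMIs (unique molecular identifiers, each standing for 1 captured RNA molecule), which 27766 of 30323 barcodes did. Counts were summed per library over dentate granule nuclei, defined by at least 3 UMIs of Prox1, Dsp and C1ql2 together and at most 1 UMI of Gad1 and Gad2 together. This gate held 6042 nuclei, and the other 21724 nuclei and all nuclei together were analysed beside it.

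All mice were male C57BL/6J, 12 weeks old, and were injected 1 h ahead of the chamber and killed 1 h afterwards, and each library pooled the hippocampi of 5 of them. The drug was CI-994 at 30 mg/kg, which blocks class I histone deacetylases, and the controls received its vehicle. In contextual fear conditioning (CFC) 3 min in the chamber were followed by 2 foot shocks of 0.2 mA, and Context mice spent the same time there unshocked. Veh-CFC and HDACi-CFC had 2 libraries each, Veh-Context and HDACi-Context 1 each. The Context side of the comparison therefore has no replicates, and the error of the interaction comes from the 2 pairs of CFC libraries alone, with the lone Context libraries assumed to vary like them. The title and treatment label of the library labelled Veh-Context say vehicle and its description says HDACi.

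Class I deacetylases remove acetyl groups from histone tails, and inhibiting them raises acetylation at promoters and enhancers and alters the transcription of many genes. Contextual fear conditioning pairs a place with a shock, and the dentate gyrus, whose principal cells are the granule neurons, is needed to encode such a place. Neuronal activity switches on rapid transcription factor genes such as Fos and Npas4 and, later, genes whose products act at synapses. An interaction of drug and shock is the measure of whether the drug does something in shocked animals that it does not do in unshocked ones.

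The granule gate held 714 and 1139 nuclei in the Veh-CFC libraries, 766 and 1145 in HDACi-CFC, 888 in Veh-Context and 1390 in HDACi-Context, with 5154486 to 11882644 UMIs. The 8 granule markers that the gate did not use summed to between 3984 and 5314 CPM in these nuclei, CPM being UMIs relative to the library's total. Marker sums use that total as it is, and levels and sums of all other genes are scaled by TMM (trimmed mean of M values). Microglial markers summed to 112 to 149 CPM in the granule nuclei of the 4 CFC libraries, 244 CPM in HDACi-Context and 358 CPM in Veh-Context, and a microglial gate held 6.04% to 6.70% of nuclei in the CFC libraries, 8.99% in HDACi-Context and 13.6% in Veh-Context. The Context libraries stood apart from the CFC libraries in the granule profile too. Over the 4882 genes whose mean log2 CPM reached 5, the SD of the log2 difference was 0.139 between the Veh-CFC replicates and 0.178 between the HDACi-CFC replicates, against 0.494 between each Context library and the mean of the CFC libraries of its own drug label. By Pearson's r across these genes, Veh-Context was nearer to the Veh-CFC libraries (0.918 and 0.927) than to the HDACi-CFC libraries (0.873 and 0.878). HDACi-Context was nearer to HDACi-CFC (0.936 and 0.942) than to Veh-CFC (0.857 and 0.865).

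The drug difference in granule nuclei was largely shared between shocked and unshocked mice. Across the 4882 better expressed genes, the CFC and Context drug differences, which share no library, correlated with r = 0.913, given as a description across genes, which are not independent replicates, and the slope of the Context on the CFC difference was 0.889. Of 3142 such genes called for the CFC drug difference, 3085 (98.2%) had the same sign in Context, beside 89.1% of all 4882. The interaction itself was called, at an adjusted p below 0.05 (edgeR's quasi-likelihood test, adjusted after Benjamini and Hochberg across every gene tested), for 107 of 17339 genes (0.617%): 49 positive (0.283%) and 58 negative (0.335%). In the same fit 7107 genes (41%) were called for the CFC drug difference, 3406 higher (19.6%) and 3701 lower (21.3%), and 45 of the 107 were among them. In 60 of the 107 genes the CFC and Context drug differences had opposite signs. In 43 they had the same sign and Context had the larger, and in 4 the same sign with CFC the larger. The 107 were selected on the gap between these differences, so the counts are a description.

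**Figure D1:**
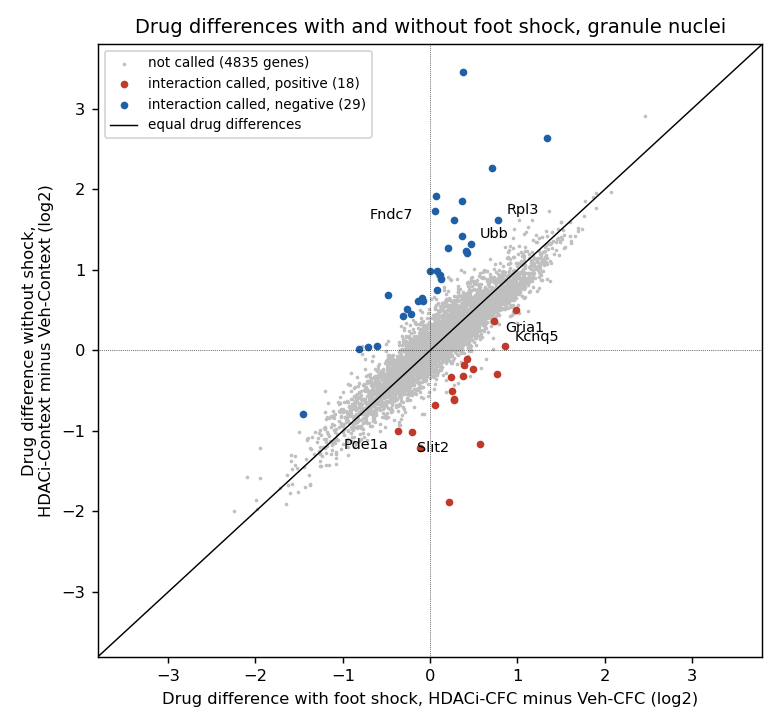
Drug difference with shock (x axis, log2) against drug difference without shock (y axis, log2) for the 4882 genes whose mean log2 CPM reached 5 in granule nuclei. Grey points had no called interaction, red and blue points had a positive or a negative one, and the diagonal marks equal differences. Most genes lie along the diagonal (r = 0.913), and many called genes lie near 0 on the x axis and away from 0 on the y axis.

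The number of called genes depended on the processing and on single libraries. It was 16 with DESeq2, 54 with scaling per nucleus, 95 with library-size scaling, 31 after thinning all libraries to the same depth, 21 when nuclei needed 1000 genes and no more than 1% mitochondrial UMIs, and 10 with a gate of at least 6 granule UMIs, which kept fewer nuclei. Without HDACi-CFC replicate 1 or replicate 2 it was 246 or 370. The positive share of calls moved with the scaling, from 45.8% to 33.7% with library-size scaling and 33.3% per nucleus, and it was 18.8% with DESeq2.

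Among the genes with a positive interaction were an ion channel and a receptor gene that bear on the excitability of neurons. Kcnq5 (ENSMUSG00000028033, GRCm38 chr1:21398403-21961942), a subunit of the M-current potassium channel, stood at 145 and 121 CPM in the Veh-CFC granule nuclei, 231 and 249 CPM in HDACi-CFC, 106 CPM in Veh-Context and 110 CPM in HDACi-Context. Both HDACi-CFC libraries lay above the other 4, and the 2 Context libraries nearly coincided. Its interaction was 0.81 ± 0.156 (log2, SE; adjusted p = 0.00485), from a drug difference of 0.86 with shock and a log2 ratio of 0.05 without (95% counting interval -0.07 to 0.18, which covers counting error only). The list of 39 voltage-gated channel genes held 2 calls, both positive, and had a median of 0.13, beside 0.617% of all genes called and a median of -0.01. It held 0 calls with DESeq2, with scaling per nucleus, after thinning and without Veh-CFC replicate 2, where the list median was 0.11. The channel list also held 0 with the gate of 6 UMIs and in granule nuclei without microglial marker UMIs. Its most was 6, without HDACi-CFC replicate 2.

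Gria1 (chr11:57011387-57330244), the GluA1 subunit of AMPA receptors, was at 2017 and 2034 CPM (Veh-CFC), 3473 and 3264 CPM (HDACi-CFC), 2101 CPM in Veh-Context and 2702 CPM in HDACi-Context. The drug libraries were the higher in both exposures, and the difference was the larger with shock. The drug difference was 0.73 with shock and 0.36 without (counting interval 0.34 to 0.39), an interaction of 0.37 ± 0.0867 (SE; edgeR adjusted p = 0.0317). Of 24 glutamate receptor genes tested Gria1 alone was called, and 0 by DESeq2 (median interaction of the list 0.07), beside 0.617% of all genes and a median of -0.01 over all genes.

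Calcium, cAMP and MAPK signalling gave 2 calls among 46 genes, both positive, with a list median of 0.12, beside 0.617% and -0.01 for all genes. The list held 0 calls with DESeq2, with library-size scaling, with scaling per nucleus and without Veh-CFC replicate 1 or replicate 2, where its median was 0.11 or 0.15. It also held 0 after thinning, with the stricter filter on nuclei, with the gate of 6 UMIs and without microglial marker UMIs. Its most was 8, without HDACi-CFC replicate 2. Pde1a, a phosphodiesterase activated by calcium and calmodulin, was at 145 and 142 CPM (Veh-CFC), 118 and 105 CPM (HDACi-CFC), 148 CPM in Veh-Context and 73.8 CPM in HDACi-Context. The drug libraries were the lower in both exposures, and the difference was -1.0 without shock against -0.37 with it (log2), an interaction of 0.64 ± 0.154 (SE; edgeR adjusted p = 0.0388). Camk1d, a calcium/calmodulin-dependent kinase, had an interaction of 0.52 ± 0.122 (SE; edgeR adjusted p = 0.031). Its levels were 251 and 259 CPM in the Veh-CFC pair and 344 and 338 CPM in the HDACi-CFC pair, against 531 CPM in Veh-Context and 494 CPM in HDACi-Context, so that both Context libraries lay above all CFC libraries. Slc8a1, a sodium/calcium exchanger that moves calcium out of the cell, had an interaction of 0.57 ± 0.138 (SE; edgeR adjusted p = 0.0379).

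The teneurins Tenm3 and Tenm4, adhesion proteins that pair neurons across synapses, had interactions of 0.73 and 0.57, and were the 2 of 45 synaptic adhesion and scaffold genes called (list median 0.11), beside 0.617% of all genes. DESeq2, scaling per nucleus and thinning gave 0 calls in this list, as did leaving out Veh-CFC replicate 2 (median 0.10). So did the stricter filter on nuclei and granule nuclei without glial or without microglial marker UMIs. The most was 6, without HDACi-CFC replicate 1. Tenm3 stood at 93.9 and 80.2 CPM in the Veh-CFC pair, 84.0 and 94.7 CPM in the HDACi-CFC pair, 109 CPM in Veh-Context and 68.0 CPM in HDACi-Context. The CFC libraries of both drugs overlapped, and the 2 Context libraries were the highest and the lowest of the 6. Slit2, a secreted guidance cue, had an interaction of 0.80 (adjusted p = 0.0403 by edgeR), with drug differences of -0.21 with shock and -1.01 without. Astn2, which acts in the trafficking of neuronal surface proteins, had an interaction of 0.70, with drug differences of 0.38 and -0.32.

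Of these genes, 6 were also abundant outside the granule gate with an interaction near 0 in those nuclei pooled, though not in each marker gate given below. Outside the gate Kcnq5 was at 1015 to 1635 CPM, and its interaction there was -0.08. Those of Tenm3, Slit2, Pde1a, Slc8a1 and Tenm4 lay between -0.03 and 0.11, and none of the 6 was called. Astn2 had 0.14 and Gria1 0.22 outside the gate, neither called, while Camk1d had 0.57 and was called there too (edgeR adjusted p = 0.0296). The difference between the granule nuclei and the others was not tested. Markers of CA pyramidal neurons summed in the granule nuclei, without TMM scaling, to 332 and 331 CPM (Veh-CFC), 499 and 524 CPM (HDACi-CFC), 272 CPM in Veh-Context and 432 CPM in HDACi-Context. They were higher with the drug in both exposures, and their part in the interaction was not tested.

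Most of these calls rest on the settings. The Kcnq5 interaction kept its call in 9 of 15 alternatives with values of 0.68 to 1.44, Pde1a in 6 (0.54 to 1.01), Gria1 in 5 (0.27 to 0.45), Slit2 in 5 (0.07 to 0.86) and Tenm4 in 4 (0.47 to 0.68). Leaving out Veh-CFC replicate 2 ended the calls of Kcnq5, Tenm3, Slit2, Pde1a, Slc8a1, Tenm4, Camk1d and Gria1, at 0.68, 0.61, 0.79, 0.62, 0.51, 0.61, 0.55 and 0.38 in that order. Leaving out Veh-CFC replicate 1 ended the calls of Slit2, Astn2, Pde1a, Slc8a1, Tenm4, Camk1d and Gria1, at 0.81, 0.67, 0.66, 0.63, 0.54, 0.50 and 0.36.

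**Figure D2:**
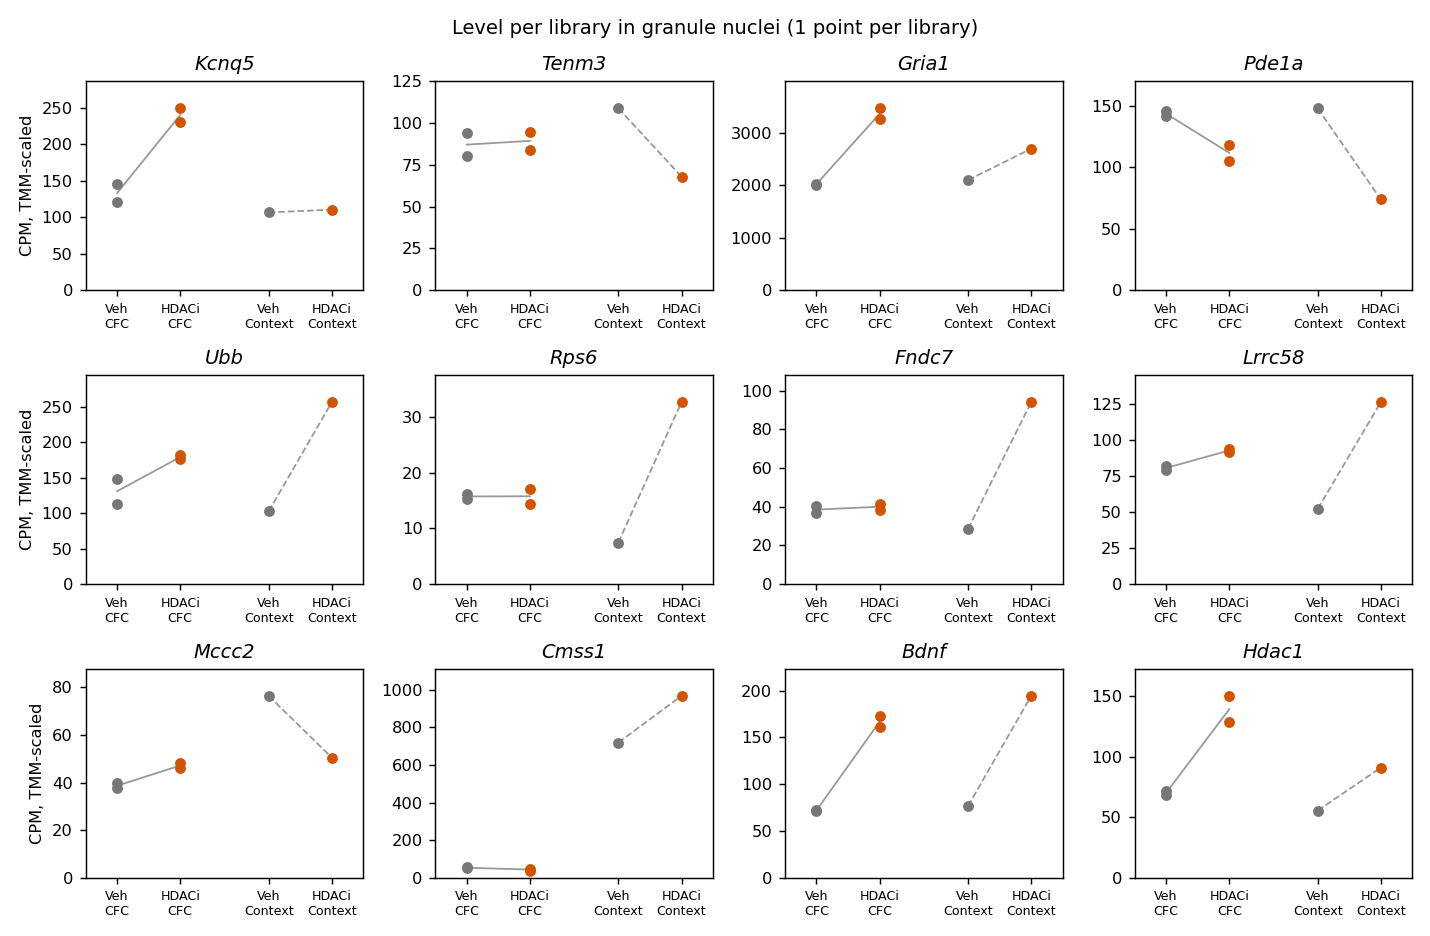
Level (y axis, TMM-scaled CPM from 0) of 12 genes in the granule nuclei of each library (x axis, 4 groups), 1 point per library, grey for vehicle and orange for HDACi. Solid lines join the CFC group means and dashed lines the single Context libraries. Kcnq5 separates the drug groups with shock alone, Rps6 and Fndc7 without shock alone, and Bdnf and Hdac1 in both exposures.

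Ribosomal protein genes were among the negative interactions. Of 79 tested ribosomal protein genes with Rpl or Rps symbols, 10 were called, all negative (12.7%, against 0.335% of all genes called negative). In the list of ribosomal protein genes, 7 of 31 were called negative and 0 positive, with a median of -0.24. Those named were Rps6, Rps18, Rpl3, Rpl11, Rpl17 and Rpl36, parts of the small (Rps) and large (Rpl) ribosomal subunits. The count of negative calls in the list was 0 to 8 over the 15 alternatives: 2 with DESeq2 and with scaling per nucleus, 1 in each of the stricter filters on nuclei and on the granule gate, and 0 without microglial marker UMIs, where 70 Veh-Context nuclei remained.

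Rps6 (chr4:86854660-86857412), the subunit whose phosphorylation is often read as a sign of neuronal activity, was at 16.3 and 15.2 CPM in the Veh-CFC pair, 14.4 and 17.2 CPM in the HDACi-CFC pair, 7.44 CPM in Veh-Context and 32.7 CPM in HDACi-Context. The 4 CFC libraries overlapped, and the Context libraries were the lowest and the highest of the 6. The drug difference was 0.03 with shock and 2.14 without (counting interval 1.76 to 2.54), and the interaction -2.10 ± 0.284 (SE; edgeR adjusted p = 1.93e-05), called in 14 of 15 alternatives.

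Rpl3 was at 33.2 and 33.7 CPM in Veh-CFC, 57.2 CPM in both HDACi-CFC libraries, 26.3 CPM in Veh-Context and 81.1 CPM in HDACi-Context. Here the drug libraries were the higher in both exposures, with a difference of 0.77 with shock and 1.62 without, an interaction of -0.85 that kept its call in 7 of 15 alternatives. Its call was lost without either Veh-CFC library (-0.86 without replicate 1, -0.84 without replicate 2), as was that of Rpl17 (-0.79 and -0.86).

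Ribosomal protein genes have many near-identical processed copies in the genome, and how the authors' counting split reads among them is not given in the sources used here, so these values are uncertain. By symbol alone (the gene's name followed by -ps), the annotation holds 4 copies of Rps6, 3 of Rps18, 2 of Rpl3 and 11 of Rpl17. It holds 9 of Rpl36 and 0 of Rpl11. The biotype of these copies was not checked. Rps12-ps3, whose symbol marks it as a copy of Rps12, and the unnamed model Gm10073, both annotated as protein coding and chosen after their values were seen, had interactions of -3.28 and -3.08. Gm10073 was at 42.8 and 28.5 CPM in the Veh-CFC pair, 44.8 and 45.2 CPM in the HDACi-CFC pair, 6.89 CPM in Veh-Context and 75.9 CPM in HDACi-Context. Veh-Context was again the lowest library and HDACi-Context the highest.

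The summed level of the 31 listed ribosomal protein genes did not follow that order. It was 1058 and 1060 CPM (Veh-CFC), 1271 and 1394 CPM (HDACi-CFC), 1597 CPM in Veh-Context and 2385 CPM in HDACi-Context, so both Context libraries lay above all CFC libraries. Mitochondrial transcripts, which are not made in the nucleus, summed to 9276 and 5862 CPM in the Veh-CFC pair, 12133 and 10118 CPM in the HDACi-CFC pair, 10302 CPM in Veh-Context and 15422 CPM in HDACi-Context. HDACi-Context was the highest in both sums, and the part of cytoplasmic RNA in the ribosomal result was not tested.

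Beside the ribosomal genes stood Ubb (chr11:62551171-62553213), a polyubiquitin gene that supplies much of the cell's ubiquitin. It was at 149 and 113 CPM (Veh-CFC), 182 and 177 CPM (HDACi-CFC), 102 CPM in Veh-Context and 257 CPM in HDACi-Context. The drug libraries were the higher in both exposures, by 0.46 with shock and by 1.33 without (log2), and the interaction was -0.86 ± 0.164 (SE; edgeR adjusted p = 0.00431), called in 9 of 15 alternatives. Cox7c, a subunit of mitochondrial cytochrome c oxidase, was near level in the 4 CFC libraries (57.6 to 63.0 CPM) and at 76.4 CPM in Veh-Context and 146 CPM in HDACi-Context, an interaction of -0.82. Tmed5, a carrier protein of the early secretory pathway, was lower with the drug in CFC (43.1 and 37.3 against 23.1 and 22.3 CPM) and stood at 42.9 and 43.4 CPM in the 2 Context libraries, an interaction of -0.84. Without Veh-CFC replicate 1 the calls of Ubb (-0.66) and Tmed5 (-0.74) were lost.

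The most stable negative call among the better expressed genes was Fndc7 (chr3:108853678-108890008), which encodes a protein with fibronectin type III domains. Its level was 36.7 and 40.1 CPM in the Veh-CFC pair, 38.4 and 41.5 CPM in the HDACi-CFC pair, 28.4 CPM in Veh-Context and 94.0 CPM in HDACi-Context. The 5 other libraries lay between 28.4 and 41.5 CPM. The interaction of -1.67 ± 0.193 (SE; edgeR adjusted p = 7.22e-07) kept its call in 14 of 15 alternatives and missed it without microglial marker UMIs (adjusted p = 0.0541).

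Lrrc58 (chr16:37868389-37888858), a leucine-rich repeat protein gene, was at 82.0 and 79.0 CPM (Veh-CFC), 93.8 and 91.7 CPM (HDACi-CFC), 52.1 CPM in Veh-Context and 126 CPM in HDACi-Context. Its interaction was -1.07 ± 0.162 (SE; edgeR adjusted p = 0.000139). Orc5, a subunit of the origin recognition complex, was at 37.6 and 37.1 CPM in the Veh-CFC pair, 25.3 and 27.6 CPM in the HDACi-CFC pair, 23.5 CPM in Veh-Context and 38.0 CPM in HDACi-Context, an interaction of -1.18. Its drug difference was negative with shock and positive without. Nup210l, related to a nuclear pore protein, had an interaction of -0.90, not called without Veh-CFC replicate 1 (-0.90) or replicate 2 (-0.91).

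Context libraries lay outside the range of the CFC libraries in many genes, called or not: both were inside it in 9 of the 107 called genes (8.41%) and in 22.1% of all genes tested. Veh-Context was below all 5 other libraries in 43 of the 107, a pattern found in 20.3% of all genes tested, and above all 5 in 36, found in 22.1%. HDACi-Context was above all others in 31, found in 20.6%, and below all others in 16, found in 18.6%. In 89 of the 107 genes the absolute Context drug difference was larger than the CFC drug difference. Each Context library enters the interaction alone, without a replicate, and the 107 genes were selected by that interaction. An extreme Context library thus favours a call, so the excess over all genes is a description and not a separate result.

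Several called genes were high in both Context libraries and low in all CFC libraries, so that their interaction is a small remainder of a larger offset. Cmss1, a ribosomal small subunit homolog gene that overlaps Filip1l on the other strand, was at 38.5 to 55.5 CPM in the CFC libraries, 720 CPM in Veh-Context and 968 CPM in HDACi-Context, with an interaction of -0.74. Pde1c, another calcium-activated phosphodiesterase, was at 56.4 to 86.2 CPM in CFC, 437 CPM in Veh-Context and 371 CPM in HDACi-Context, with an interaction of 0.73. Mccc2, a subunit of the mitochondrial enzyme that breaks down leucine, had its highest level in Veh-Context (76.4 CPM, against 37.7 to 50.5 CPM in the other 5) and an interaction of 0.87. Without Veh-CFC replicate 1 the calls of Cmss1 (-0.67), Pde1c (0.71) and Mccc2 (0.85) were lost.

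Promoter sequences are shown for the 4 named genes with the smallest p that held a match to a cyclic AMP response element (CRE, TGACGTCA) or an AP-1 site (TGANTCA), the sites bound by CREB and by Fos and Jun proteins, on either strand. The stretches come from the RefSeq promoter table (GRCm38.p6), start at most 250 bases before one annotated start, leave out annotated exons, and read 5′ to 3′ on the gene's strand, with the match in capitals. The Ubb match lies 117 bases before the start used, that of Cox7c 178, that of Pde1c 246 and that of Tenm3 63. The starts used for all 4 genes are internal ones. The stretches of Ubb, Pde1c and Tenm3 lie inside the annotated gene spans (chr11:62551171-62553213, chr6:56069804-56569103 and chr8:48227682-48843951), not before the first base of the gene. The Cox7c stretch lies just before the first base of its gene (chr13:86044816-86046904) and ends 110 bases before the start used. Its match is thus nearer to the gene's first base than to that start.
Ubb, AP-1, chr11:62551596-62551675, plus strand: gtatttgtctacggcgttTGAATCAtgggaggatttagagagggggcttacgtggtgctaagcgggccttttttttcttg
Cox7c, AP-1, chr13:86046905-86047045, minus strand: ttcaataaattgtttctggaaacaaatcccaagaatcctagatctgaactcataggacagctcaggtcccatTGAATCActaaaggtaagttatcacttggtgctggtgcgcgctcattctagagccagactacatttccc
Pde1c, AP-1, chr6:56369635-56369884, minus strand: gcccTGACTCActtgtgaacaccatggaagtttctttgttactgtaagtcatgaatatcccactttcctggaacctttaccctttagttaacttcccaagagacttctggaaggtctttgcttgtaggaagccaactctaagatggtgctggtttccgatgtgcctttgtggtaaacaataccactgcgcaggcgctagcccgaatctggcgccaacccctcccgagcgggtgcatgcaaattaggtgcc
Tenm3, CRE, chr8:48674723-48674940, minus strand: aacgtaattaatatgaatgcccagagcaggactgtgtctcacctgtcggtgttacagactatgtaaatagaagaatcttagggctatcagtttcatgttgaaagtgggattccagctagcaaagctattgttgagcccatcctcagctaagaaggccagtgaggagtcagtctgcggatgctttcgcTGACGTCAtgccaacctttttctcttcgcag

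In windows of 300 bases, a CRE was found at 1 of 40 starts of positive genes (2.5%) and 2 of 41 starts of negative genes (4.88%), beside 1.79% of all 32851 starts. AP-1 matches were at 5 (12.5%) and 3 (7.32%), beside 7.81%. The GC box GGGCGG, a site of Sp proteins found in many housekeeping promoters, was at 8 of 40 starts of positive genes (20.0%), 25 of 41 of negative genes (61.0%) and 35.7% of all starts. These shares describe the letters in the windows, and the starts of 1 gene share sequence.

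Activity-regulated genes gave no called interaction in granule nuclei, beside 0.617% of all genes called. Of 8 activity genes 7 could be tested, and by edgeR's adjusted p 0 were called, with 0 at an unadjusted p below 0.05 (8.41% of all genes) and 0 called by DESeq2. Fos was at 0.336 and 1.42 CPM (Veh-CFC), 2.44 and 1.05 CPM (HDACi-CFC), 1.33 CPM in Veh-Context and 0.837 CPM in HDACi-Context. Its interaction interval of -0.69 to 3.33 was too wide to resolve a direction, and the parts of depth and of spread between libraries in that width were not tested. Npas4, at 0.336 to 3.55 CPM, had an interval of -0.36 to 2.68, Arc of -1.80 to 0.28, Egr1 of -0.63 to 1.16 and Nr4a1 of -0.36 to 1.06. Fosb had 0 to 2 UMIs in 5 of the libraries and 12 in HDACi-Context and was not tested.

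Bdnf and Homer1 were the best measured of the activity genes. Bdnf, the neurotrophin gene, was at 71.5 and 72.3 CPM in the Veh-CFC pair, 173 and 161 CPM in the HDACi-CFC pair, 76.6 CPM in Veh-Context and 194 CPM in HDACi-Context. The drug libraries lay above the vehicle libraries in both exposures, by 1.21 with shock and 1.34 without (counting interval 1.22 to 1.47), and the interaction was -0.13 (95% interval -0.44 to 0.18). Homer1, a postsynaptic scaffold gene, was at 78.2 to 93.4 CPM in all 6 libraries, with an interaction of 0.29 (interval -0.05 to 0.62).

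Over the longer lists, 26 immediate early genes had 0 calls (3 at an unadjusted p below 0.05, 0 by DESeq2) and a median of -0.30, the lowest of the 22 lists. Their summed level was 212 and 262 CPM (Veh-CFC), 378 and 406 CPM (HDACi-CFC), 244 CPM in Veh-Context and 488 CPM in HDACi-Context, higher with the drug in both exposures. The 30 late activity-regulated genes had 0 calls (5 unadjusted, 0 by DESeq2) and a median of -0.06. No list of presynaptic genes (32 tested), GABA receptors (14), glucocorticoid-responsive genes (19), clock genes (20), heat shock genes (21), cholesterol synthesis genes (22), astrocyte genes (23) or myelin genes (20) held a call by edgeR or by DESeq2. In that order they had 3, 1, 3, 2, 0, 2, 5 and 1 genes at an unadjusted p below 0.05. Over all genes 8.41% had such a p and 0.617% were called by edgeR. In lists of this size, 0 calls is near the share of all genes.

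**Figure D3:**
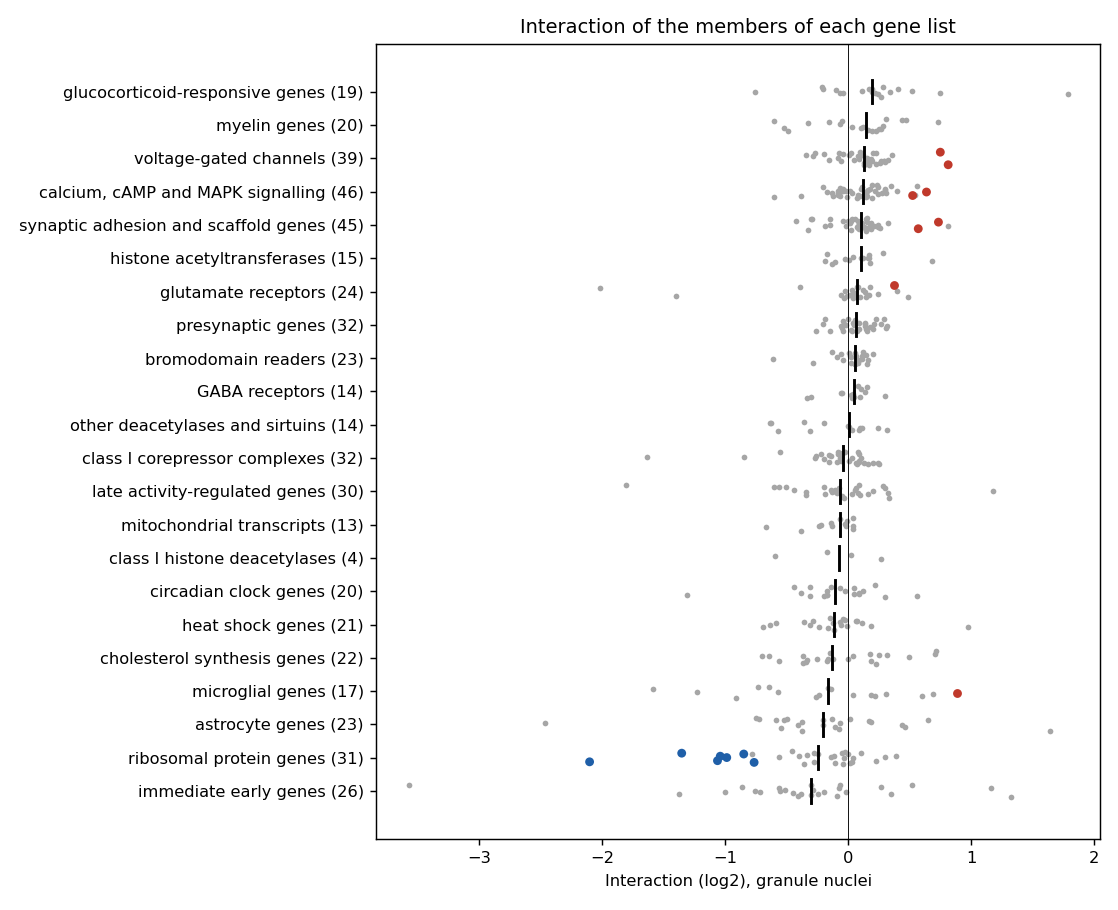
Interaction (x axis, log2) of each tested member of the 22 gene lists (rows, with the number tested) in granule nuclei. Grey points were not called, red and blue points were called positive or negative, points are spread vertically within a row for visibility, and bars mark list medians. There are 7 ribosomal protein genes called on the negative side, and 2 channel, 2 signalling, 2 adhesion genes and 1 glutamate receptor gene are among those on the positive side.

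The 4 class I targets of the drug showed no called interaction, beside 0.617% of all genes called, a share at which 4 genes would seldom hold a call. Hdac1 was at 68.6 and 71.7 CPM in the Veh-CFC pair, 150 and 128 CPM in the HDACi-CFC pair, 55.5 CPM in Veh-Context and 91.0 CPM in HDACi-Context, higher with the drug in both exposures, with an interaction of 0.27 (95% interval -0.08 to 0.61). Hdac2 had an interaction of -0.17 (interval -0.61 to 0.26) and Hdac8 of 0.02 (interval -0.26 to 0.30). Hdac3, the catalytic subunit of the NCoR complexes, was at 42.1 to 49.9 CPM in the CFC libraries, 14.3 CPM in Veh-Context and 24.1 CPM in HDACi-Context. Both Context libraries lay below all CFC libraries, and the interaction was -0.59 (interval -1.05 to -0.14; edgeR adjusted p = 0.364). It was the 1 of 4 class I genes at an unadjusted p below 0.05 (8.41% of all genes), and DESeq2 called 0.

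Genes of the acetylation machinery were likewise without calls: 0 of 14 other deacetylases and sirtuins, 0 of 15 histone acetyltransferases, 0 of 32 corepressor subunits and 0 of 23 bromodomain readers, by edgeR and by DESeq2. With 0.617% of all genes called by edgeR, 0 calls in lists of this size is near the share of all genes. At an unadjusted p below 0.05 they had 2, 0, 2 and 0, beside 8.41% of all genes. Their medians lay between -0.04 and 0.11.

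A set of 20 genes with large drug differences in CFC had differences of the same sign without shock. They were taken from an earlier account of these data, are not the largest differences of this fit, chosen on the CFC libraries that also enter the interaction, and are given as a description. The 10 raised genes, among them Syn1 (a synaptic vesicle phosphoprotein), Nefm (a neurofilament subunit) and Gpc4 (a glypican of the cell surface), had drug differences of 1.37 to 1.90 with shock and 0.86 to 1.91 without. The 10 lowered genes, among them Trim37 (a ubiquitin ligase), Terf1 (a telomere-binding protein) and Wnk1 (a kinase regulating chloride transport), had -2.10 to -1.32 with shock and -1.86 to -1.01 without. All 20 had the same sign in both exposures. By edgeR 0 interactions were called (0.617% of all genes), 3 had an unadjusted p below 0.05 (8.41% of all genes) and DESeq2 called 0. Their 95% intervals stayed within -0.92 to 0.90. Without HDACi-CFC replicate 1 the interaction of Hmgcll1, among the raised genes, was called (edgeR adjusted p = 0.0293).

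Syn1 was at 149 and 147 CPM (Veh-CFC), 482 and 427 CPM (HDACi-CFC), 106 CPM in Veh-Context and 271 CPM in HDACi-Context. Both drug groups lay above every vehicle library, with an interaction of 0.26 (interval -0.02 to 0.54). Trim37 was at 100.5 and 106 CPM in the Veh-CFC pair, 25.9 and 22.8 CPM in the HDACi-CFC pair, 84.7 CPM in Veh-Context and 28.5 CPM in HDACi-Context, with an interaction of -0.53 (interval -0.92 to -0.14; edgeR adjusted p = 0.322). The drug difference was the larger with shock in 8 of the 10 raised and 8 of the 10 lowered genes, as choosing them on the CFC libraries favours.

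**Figure D4:**
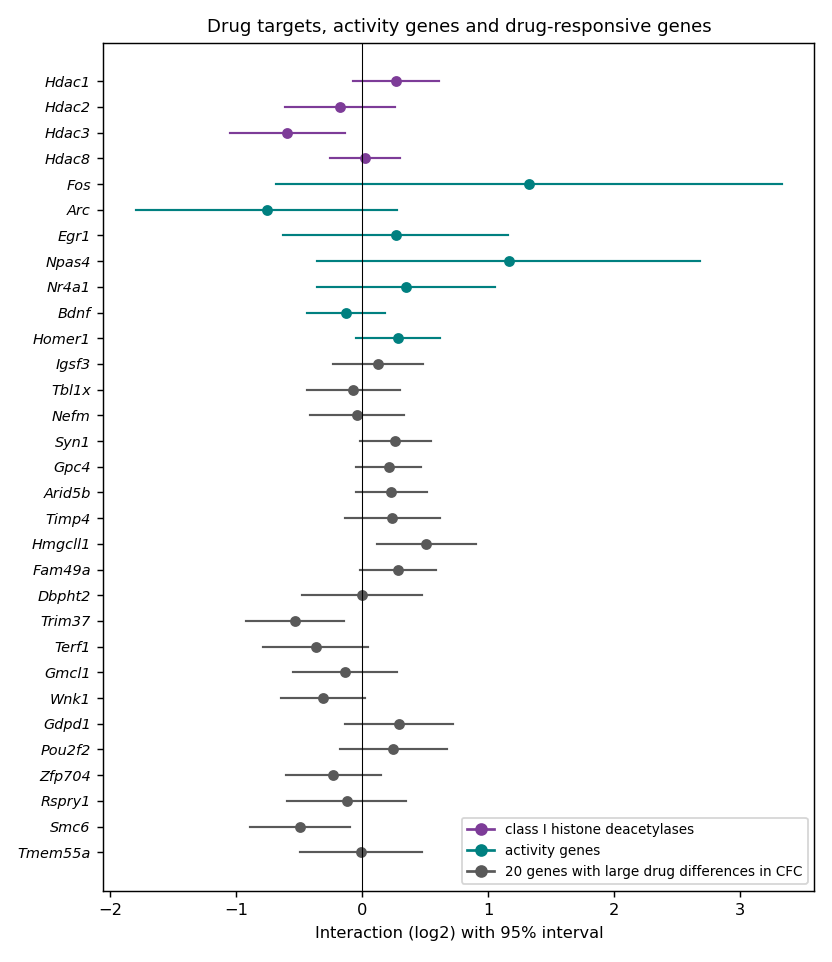
Interaction (x axis, log2) with its 95% interval in granule nuclei for the 4 class I histone deacetylases, 7 activity genes and 20 genes with large drug differences in CFC. None was called. Intervals are widest for Fos and Npas4, which had a few CPM, and narrow for the well expressed drug-responsive genes.

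Outside the granule gate the interaction was called for 158 of 21315 genes (0.741%), 97 positive (0.455%) and 61 negative (0.286%), and in all nuclei for 186 of 21814 (0.853%), 127 positive (0.582%) and 59 negative (0.27%). The CFC drug difference was called there for 8948 genes outside the gate (42%; 18.3% higher, 23.7% lower) and 9547 in all nuclei (43.8%; 22.3% higher, 21.5% lower). Of the 107 granule calls 62 (57.9%) were also called outside the gate, which is 39.2% of the 158, all with the same sign. Of the 107, 104 had the same sign there, and the share of matching signs over all genes was not computed. Negative genes with similar values outside the gate included Rps6 at -2.0 (edgeR adjusted p = 0.000277), Fndc7 at -1.36, Rpl11 at -1.05, Orc5 at -0.97, Ubb at -0.92 and Lrrc58 at -0.85. Both sets of nuclei come from the same 6 libraries, so these values share their libraries and do not replicate each other.

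Some genes led the list outside the gate. Myo7b, an unconventional myosin, was at 66.4 and 56.2 CPM (Veh-CFC), 57.2 and 57.8 CPM (HDACi-CFC), 24.3 CPM in Veh-Context and 59.7 CPM in HDACi-Context. Veh-Context alone was low, and the interaction was -1.39 ± 0.159 (SE; edgeR adjusted p = 0.000814). On the positive side, Tmem56 (0.84), Fbxw8, a ubiquitin ligase subunit (0.79), Rpl26 (0.73) and Lars2, the mitochondrial leucyl-tRNA synthetase (0.63), led. Of 8 genes with Rpl or Rps symbols called outside the gate, Rpl26 was the 1 positive and 7 were negative. Among the 31 listed ribosomal protein genes, called or not, 9 lay above 0 there. Rpl26 stood at 78.4 and 79.8 CPM in the Veh-CFC pair, 109 and 99.1 CPM in the HDACi-CFC pair, 172 CPM in Veh-Context and 137 CPM in HDACi-Context. Both Context libraries lay above all CFC libraries for Rpl26, Lars2 and Tmem56. Without Veh-CFC replicate 1 the calls of Tmem56 (0.84), Fbxw8 (0.86), Rpl26 (0.71) and Lars2 (0.65) were lost, and without replicate 2 those of Tmem56 (0.83), Fbxw8 (0.72) and Lars2 (0.61).

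Gates for CA pyramidal neurons, interneurons, oligodendrocytes, their precursors, astrocytes and microglia, each by at least 3 UMIs of its markers, held 88 to 1845 nuclei per library, and their interactions are given as values. Fndc7, Orc5, Lrrc58, Ubb, Tmed5 and Cox7c had a negative interaction in 6 of 6 of these gates, as Mccc2 and Camk1d had a positive one. Of the other negative genes, Rpl3, Rpl11, Rpl17 and Rps18 were negative in 5 of 6 gates and Nup210l in 4. Their highest values were 0.09, 0.24, 0.55, 0.24 and 0.99 in that order. For Fndc7 the values ran from -2.60 to -1.12 and for Ubb from -0.95 to -0.42. Kcnq5, Slit2, Tenm3, Pde1a and Tenm4 had the sign of the granule nuclei in 4 of 6 gates, and Slc8a1, Pde1c and Astn2 in 5. Values ran from -0.52 to 0.50 for Kcnq5, -0.37 to 4.26 for Slit2 and -0.05 to 0.42 for Tenm3. Those of Pde1a ran from -1.23 to 0.77, of Tenm4 from -0.52 to 2.1 and of Slc8a1 from -0.08 to 0.95. The highest values of Slit2 and Tenm4 came from the precursor gate, which held 88 to 148 nuclei per library. All gates share the 6 libraries, and the share of matching signs over all genes was not computed.

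**Figure D5:**
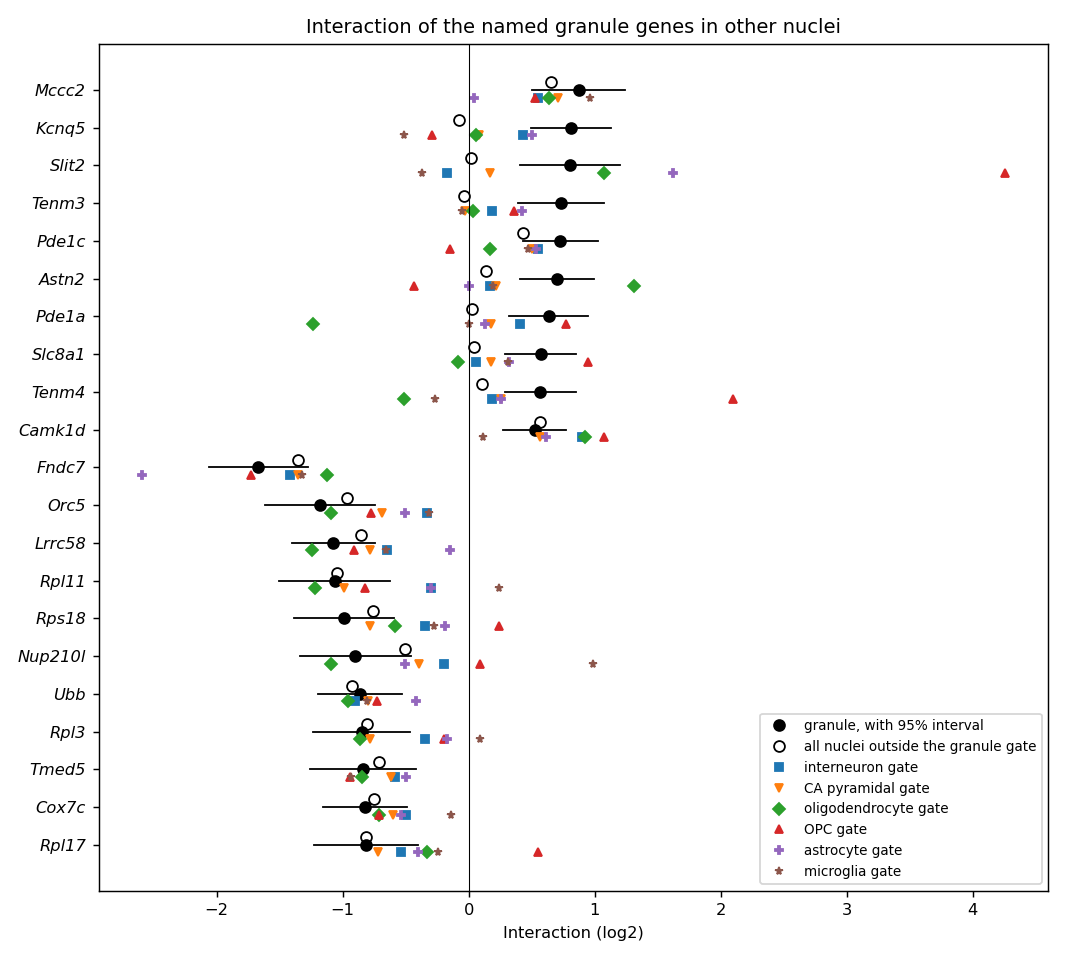
Interaction (x axis, log2) of 21 genes named in granule nuclei (rows): filled circles with 95% intervals are granule nuclei, open circles all nuclei outside the gate, and coloured symbols 6 marker gates. The negative genes Fndc7 and Ubb are negative in all of these nuclei, while the positive genes Kcnq5 and Tenm3 lie near 0 in the pooled nuclei outside the granule gate.

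The called genes of lower level given next were chosen because their drug differences had opposite signs in the 2 exposures. Dnaaf1, a factor that assembles the motors of cilia, was at 1.55 to 3.01 CPM in the CFC libraries, 15.0 CPM in Veh-Context and 2.51 CPM in HDACi-Context, an interaction of 2.77 (2.16 and not called without HDACi-CFC replicate 2). Slc22a27, an organic anion transporter gene, was at 7.21 to 10.5 CPM in CFC, 20.9 CPM in Veh-Context and 7.07 CPM in HDACi-Context, an interaction of 1.87. Sytl3, a synaptotagmin-like protein gene, had an interaction of 1.99. In the other direction Ppp1r3a, a glycogen-targeting subunit of protein phosphatase 1, was at 17.4 to 22.6 CPM in CFC, 1.56 CPM in Veh-Context and 9.76 CPM in HDACi-Context, an interaction of -2.82. Traf5, an adaptor of cytokine receptors, was at 20.5 to 22.8 CPM in CFC, 4.66 CPM in Veh-Context and 15.0 CPM in HDACi-Context, an interaction of -1.69. In each of the 4 genes whose levels are given here the CFC libraries of both drugs lay close together and Veh-Context stood apart from them.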

How the data were processed

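The deposited matrices hold raw UMI counts per gene and nucleus barcode, which the authors made with Cell Ranger 3.0.1 (CFC) or 3.0.2 (Context), per the file headers. Per the submitters' processing notes the build was mm10 and Seurat 4.0.3 was used. Intron counting is not given in the sources used here. The labels' protocols speak of 4 pooled libraries and 6 are analysed here, so a sequencing batch and the exposure cannot be told apart. Libraries held 24508202 to 45570814 UMIs and shared 1 to 11 barcodes pairwise. Doublets were not removed.

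Counts per library were fitted in edgeR 4.0.16 (R 4.3.3, filterByExpr, TMM, group means, 2-sided quasi-likelihood test). To 2 residual degrees of freedom the test added a prior shared across genes, of 33.9 in granule nuclei, 10.1 in all nuclei and 11.9 outside the gate. The SE is the absolute log2 interaction divided by the square root of the test's F. Simulated counts used to try the fit had Context libraries that varied like the CFC libraries, so they could not test that assumption. CPM are TMM-scaled except for marker sums, and drug differences are log2 fold changes of this fit. Context ratios carry exact Clopper-Pearson intervals. DESeq2 1.42.0 and other filters, scalings and gates were alternatives. P-values measure the spread between pooled libraries.

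Members and the 22 lists were chosen with earlier results of these data known. Named genes were the 12 highest and 12 lowest granule interactions (5 and 5 elsewhere) among called genes with mean log2 CPM of at least 5 and 1 sign in all pairings, listed members, and called genes with opposite drug differences. IDs matched GENCODE M21 (GRCm38) for 31011 of 31053. Some named genes are not reported here.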

Additional observations from a re-analysis of the deposited data

Results flagged for a closer look

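The named granule genes below were picked out because the drug difference with shock and that without shock differed by the interaction test itself (log2, edgeR adjusted p below 0.05); 1 library stood for each Context group.

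Channel, receptor and signalling genes were on the positive side: Kcnq5 0.812, Gria1 0.37, Pde1a 0.636, Pde1c 0.728, Camk1d 0.523, Slc8a1 0.572. So were the adhesion and guidance genes: Tenm3 0.733, Tenm4 0.569, Slit2 0.805, Astn2 0.702. Other positive genes were Mccc2 0.874, Slc22a27 1.87, Dnaaf1 2.77, Sytl3 1.99.

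Ribosomal protein genes were on the negative side: Rps6 -2.1, Rps18 -0.987, Rpl3 -0.849, Rpl11 -1.06, Rpl17 -0.817, Rpl36 -1.42. Other negative genes were Cmss1 -0.736, Cox7c -0.825, Tmed5 -0.837, Ubb -0.862, Nup210l -0.9, Lrrc58 -1.07, Orc5 -1.18, Fndc7 -1.67, Traf5 -1.69, Ppp1r3a -2.82.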

How the results depend on the processing

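The counts of called genes in granule nuclei, all nuclei and nuclei outside the gate were 107, 186 and 158. They were 54, 95 and 72 with scaling per nucleus, 16, 96 and 70 with DESeq2, 173, 671 and 511 with no filter on low counts, and 21, 100 and 121 when nuclei needed 1000 genes and no more than 1% mitochondrial UMIs. In granule nuclei the count was 31 after thinning, 10 with a gate of at least 6 UMIs, 63 without glial marker UMIs and 8 without microglial marker UMIs, the last chosen after seeing the data. Leaving out 1 CFC library gave 83 to 370 (granule), 351 to 1000 (all), 94 to 621 (outside), the highest without an HDACi-CFC replicate; a Context library cannot be left out. With the replicate number as a block the counts were 221, 1149 and 987. Deviations of same-numbered libraries correlated at 0.18, 0.28 and 0.29 over 2 pairs, and no label names a shared batch, so the numbers were not taken as pairs. Scaling per nucleus moved the median interaction by -0.098, -0.20 and -0.16. The positive share of calls in all nuclei was 62.4% with library-size scaling, 57.7% with size factors, 52.6% per nucleus and 38.5% with DESeq2, against 127 of 186, and outside the gate 51.4% per nucleus and 37.1% with DESeq2, against 97 of 158. The cause of these shifts was not tested.

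Of 53 called named values, 17 kept the call per nucleus, 20 with DESeq2 and 53 with no filter. Of the granule values, 3 of 33 kept it with the gate of 6 UMIs and 2 of 32 without microglial marker UMIs, where 2 changed sign. Sign changes, by gene and not called under the alternative, were as follows. With library-size scaling: Hdac8 -0.0305, Dbpht2 -0.0491. With size factors: Hdac8 -0.00113, Dbpht2 -0.0207. Per nucleus: Hdac8 -0.0789, Dbpht2 -0.103. With DESeq2: Hdac8 -0.00115, Dbpht2 -0.0251. With no filter: Dbpht2 -0.0141. Without Veh-CFC replicate 1: Nefm 0.0119, Tmem55a 0.0925. Without Veh-CFC replicate 2: Arc 0.381, Dbpht2 -0.0558. Without HDACi-CFC replicate 1: Tbl1x 0.026, Rspry1 0.137. Without HDACi-CFC replicate 2: Nefm 0.0874, Tmem55a 0.154. After thinning: Egr1 -0.0549, Tbl1x 0.0127, Nefm 0.0815, Tmem55a 0.111. With stricter nuclei: Hdac8 -0.096, Dbpht2 -0.12, Rspry1 0.0202. With the gate of 6 UMIs: Hdac2 0.216, Hdac8 -0.00654, Egr1 -0.308, Igsf3 -0.0679, Tbl1x 0.0519, Nefm 0.0481, Dbpht2 -0.162, Rspry1 0.00195, Tmem55a 0.201. Without glial UMIs: Gmcl1 0.032, Tmem55a 0.0549. Without microglial UMIs: Tenm3 -0.0464, Rpl11 0.163, Hdac8 -0.0431, Igsf3 -0.122, Tbl1x 0.128, Nefm 0.128, Syn1 -0.35, Gpc4 -0.118, Dbpht2 -0.658, Gmcl1 0.513, Zfp704 0.0995, Rspry1 0.0342, Tmem55a 0.551. Leaving out 1 CFC library, values ran down to -1.23 for Arc, -0.0943 for Tbl1x, -0.112 for Nefm and -0.461 for Rspry1, and up to 0.0547 for Dbpht2. Tenm3 and Rpl11 were called in the main analysis and the others were not. Intervals can be wide for genes of low level: the 95% interval of Fos spans 4.02 log2 units.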
